A study of Mus musculus with 8 samples.

Results

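The genes described here are the liver X receptors (LXRs), their heterodimer partner and target genes by which macrophages export cholesterol. They are Nr1h3, Nr1h2, Rxra, Abca1, Abcg1, Apoe, Mylip, Lpcat3, Srebf1 and Pltp. These 10 of the 53735 genes in the count tables were taken by symbol, with the values of KO against WT in these same libraries already known, so their changes are given as a description and carry no test. All 10 passed the filter on low counts, which kept 14418 genes.

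LXRs are nuclear receptors that bind oxysterols, the oxidised derivatives of cholesterol, and act on DNA together with a retinoid X receptor (RXR). In macrophages loaded with cholesterol they are known to switch on transporters that hand cholesterol to lipoprotein particles, proteins that carry or remodel lipids, the master regulator of fatty acid synthesis, and a ubiquitin ligase that limits lipoprotein uptake. Without ligand, LXR and RXR sit on target genes with corepressors.

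RNA-seq measured mRNA in bone marrow derived macrophages (BMDMs) of male mice aged 6 months, in 4 WT libraries (Mkl1+/+, Apoe-/-) and 4 KO libraries (Mkl1-/-, Apoe-/-). Mkl1 encodes MKL1 (MRTFA), a coactivator of serum response factor, and the knockout is global. All mice had received Ang II by osmotic minipump at 1.44 mg/kg/day for 7 days, after which their marrow was differentiated for 7 days in culture, so the cells were away from the infusion while they matured, and no uninfused or Apoe+/+ cells were analysed here. The labels place WT 1, WT 2, KO 5 and KO 6 in experiment 1, and WT 3, WT 4, KO 7 and KO 8 in experiment 2. Since both genotypes carry the Apoe null allele, reads counted for Apoe do not stand for functional transcript.

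Between 33977799 and 41584540 counts were deposited per library, so counting error was small for these genes: the fewest counts were 98, for Apoe in WT 4. The labels do not say whether libraries came from separate mice or cultures, and the errors given measure only the spread between these libraries, which may be technical. Mkl1 reads remained in KO, at 10.4 to 20.9 CPM (counts scaled to library size, with TMM factors over all 8 libraries) against 25.6 to 29.5 CPM in WT. Mkl1 was called lower in experiment 1 (log2 fold change -0.39, adjusted p = 0.00381 by edgeR, a call lost in the fit over all 8 libraries) and in experiment 2 (-1.17, adjusted p = 0.0218), where it was -0.95 without KO 8, -1.24 without WT 3 and -1.10 without WT 4, none of which passed. The 8 macrophage markers summed to between 15973 and 36431 CPM, with 3 lower and 4 higher in KO of experiment 1 (28.1% and 27.0% of all genes tested), and 2 lower and 2 higher in experiment 2 (8.29% and 7.53%). Adgre1, which encodes a surface antigen of mature mouse macrophages, stood at 8322 and 7097 CPM in WT 1 and 2, 1928 and 1668 in KO 5 and 6, 2676 and 2718 in WT 3 and 4, and 4871 and 5260 in KO 7 and 8. In log2 it changed by -2.11 and 0.91 in experiments 1 and 2, whereas Csf1r (0.82 and -1.28) and Cd68 (0.74 and -0.50), other markers of macrophages, had the opposite signs. With all libraries, each of these values but that of Cd68 in experiment 2 was called. In experiment 2 the call of Adgre1 ended without any 1 of the 4 libraries and that of Csf1r without WT 3, WT 4 or KO 8. Neutrophil, dendritic cell, adipocyte and B cell markers each summed to at most 1.59 CPM, with Cfd and Lep at 0 in every library. Of 8 fibroblast markers, 7 were tested and all 7 were higher in KO of experiment 1, beside 27.0% of all genes tested. The 8 fibroblast markers summed to 178 and 234 CPM in KO 5 and 6 and to between 2.18 and 12.1 CPM in the other 6 libraries, with Lum at 0 in all libraries but KO 5. Col1a2 was the largest of them there, at 81.7 CPM in KO 5 and 105 CPM in KO 6, against 2.26 and 5.07 in WT 1 and 2 (log2 fold change 4.69, or 4.85 without KO 5 and 4.49 without KO 6, neither of which passed). Endothelial markers summed to 129 and 157 CPM in KO 5 and 6, against 46.3 to 73.0 CPM elsewhere, nearly all of it from Vwf. The part of these other cells in the results of experiment 1 was not tested, and in bulk RNA fewer cells of a type cannot be told apart from less RNA per cell.

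In experiment 1, KO was lower than WT for 1 of the 10 genes (28.1% of all genes tested were called lower) and higher for 6 (27.0% were called higher). In experiment 2, 1 was lower (8.29% of all genes tested) and 3 were higher (7.53%). Only Nr1h3 was called in the same direction in both experiments. It was lower, as were 2.25% of all genes tested, and none of the 10 was called higher in both, as were 2.13%. Each of the 10 was called in at least 1 experiment, as were 60.2% of all genes tested. The median change of the 10, in log2, was 0.34 in experiment 1 and 0.20 in experiment 2, beside 0.01 and 0.01 over all genes tested. Leaving out KO 8 took the count of called genes in experiment 2 from 4 to 1, and leaving out KO 7 took it to 2, while over all genes tested the count went from 2280 to 232 and 842. In a fit over both experiments with the experiment as a term, 1 was lower (3.41% of all genes tested) and 1 was higher (3.72%), Nr1h3 and Apoe. The rule had used these contrasts, and nothing further is read from the counts.

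**Figure D1:**
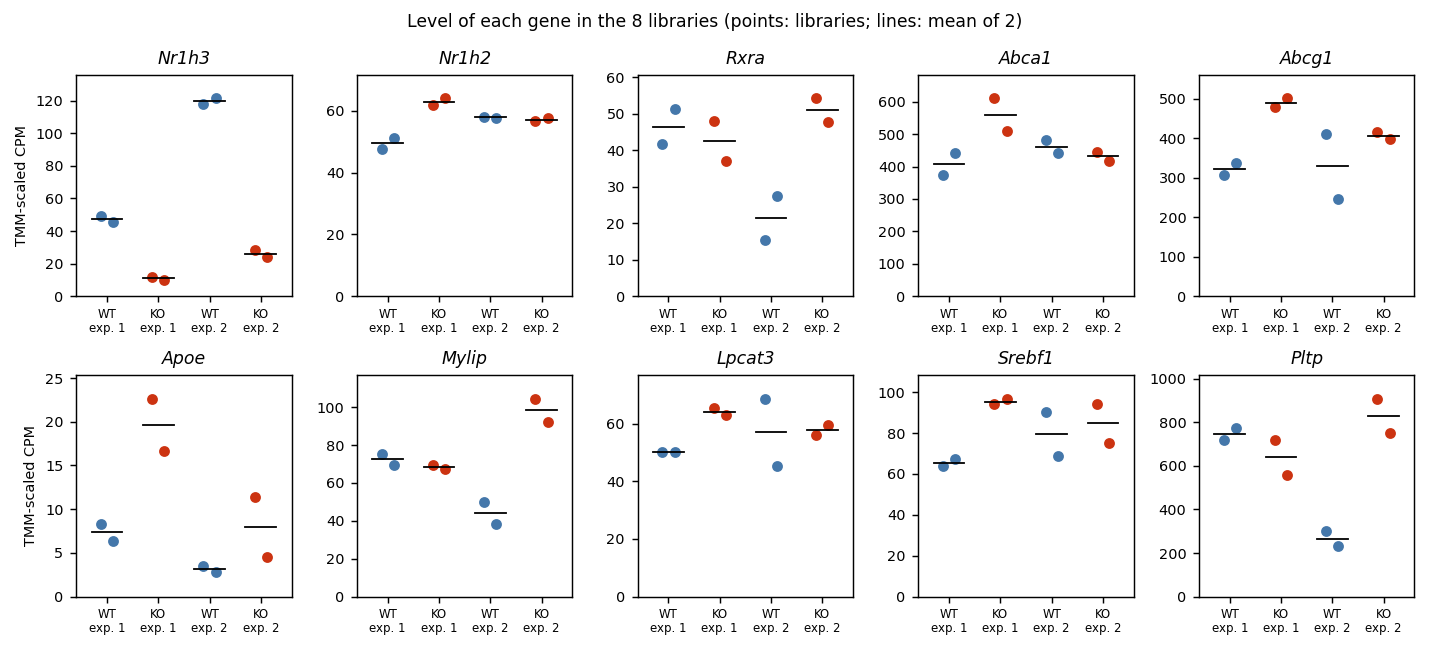
Level of each of the 10 genes in TMM-scaled CPM (linear axis from 0), with a point for each library (blue, WT; red, KO) and a line at the mean of the 2 libraries of a group. Of the 10, Nr1h3 is the gene whose 4 KO libraries, at 9.84 to 28.2 CPM, all lie below its 4 WT libraries, at 45.6 to 121 CPM. Genes set apart in this way were not counted over all genes tested.

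The receptors differed from each other. Nr1h3 encodes LXRα, the LXR that macrophages, liver and fat express most strongly and that can raise its own transcription in human macrophages. It lies on the minus strand of chr2:91184061-91202834 (GRCm38). Its level was 49.0 CPM in WT 1, 45.6 in WT 2, 12.1 in KO 5, 9.84 in KO 6, 118 in WT 3, 121 in WT 4, 28.2 in KO 7 and 23.9 in KO 8. Every KO library was below every WT library, and within each genotype both libraries of experiment 2 were above both of experiment 1. How many of all genes tested stand apart by genotype in this way was not counted. The mean of WT was 4.32 times that of KO in experiment 1 and 4.60 times in experiment 2. In log2 terms the change was -2.12 ± 0.10 (SE, n = 2 and 2) and -2.20 ± 0.13 (SE, n = 2 and 2), called in each experiment. The second experiment's change minus the first's was -0.09 ± 0.17, not past the threshold. Across the alternatives run for each experiment, the change lay between -2.27 and -1.98 in experiment 1 and between -2.33 and -2.09 in experiment 2, and it was called in every alternative. The 100 bases upstream of an annotated start of Nr1h3 are shown because this is the gene of the 10 that was called in the same direction in both experiments. They are the minus strand of chr2:91195117-91195216 (RefSeq, GRCm38.p6), written 5′ to 3′, and hold no capitals because no searched motif matched there.
Nr1h3: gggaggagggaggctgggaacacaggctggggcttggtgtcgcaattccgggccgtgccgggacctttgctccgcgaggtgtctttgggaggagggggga

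Nr1h2 encodes LXRβ, the LXR found in nearly all tissues, at chr7:44549616-44553951 (minus strand). It was 47.7 and 51.3 CPM in WT 1 and 2, 61.9 and 64.0 in KO 5 and 6, 57.9 and 57.7 in WT 3 and 4, and 56.6 and 57.5 in KO 7 and 8. Both KO libraries were above both WT libraries in experiment 1, and in experiment 2 all 4 lay within a narrow range. The log2 fold change was 0.33 ± 0.07 (SE) in experiment 1, called higher, and -0.02 ± 0.10 in experiment 2, not past the threshold. Of the 10 genes it varied least over the 8 libraries, with an SD of 0.14 in log2 CPM, and Nr1h3 varied most, with an SD of 1.35.

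Set side by side per length, the order of the 2 LXRs turned with genotype. Scaled per kb of annotated exon (GENCODE M21), Nr1h3 stood at 19.5 and 18.1 CPM per kb in WT 1 and 2 and at 47.0 and 48.3 in WT 3 and 4, while Nr1h2 stood at 14.2, 15.3, 17.3 and 17.2 in the same libraries. In KO 5, KO 6, KO 7 and KO 8, Nr1h3 stood at 4.80, 3.91, 11.2 and 9.49 CPM per kb and Nr1h2 at 18.4, 19.1, 16.9 and 17.1. Nr1h3 was thus above Nr1h2 per length in each of the 4 WT libraries and below it in each of the 4 KO libraries. For every 100 counts of Nr1h2, not scaled for length, there were between 88.9 and 211 counts of Nr1h3 in WT and between 15.4 and 49.9 in KO. Because the change of Nr1h3 was known when it was chosen, this order is a description, with no test.

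**Figure D2:**
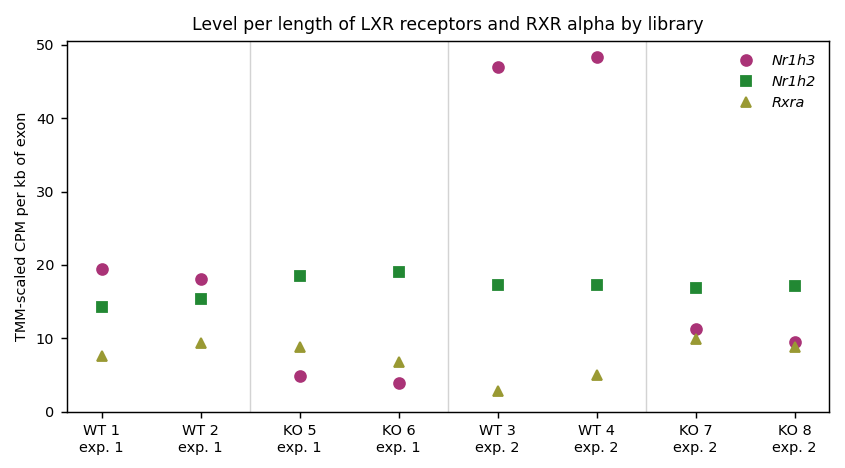
TMM-scaled CPM per kb of annotated exon for Nr1h3, Nr1h2 and Rxra in each of the 8 libraries, grouped by genotype and experiment (linear axis from 0; vertical lines part the groups). Nr1h3 lies above Nr1h2 in the 4 WT libraries and below it in the 4 KO libraries, while Nr1h2 stays between 14.2 and 19.1 CPM per kb.

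Rxra encodes RXRα, the partner with which LXRs bind DNA, at chr2:27676440-27762957 (plus strand). Its level was 41.6 and 51.3 CPM in WT 1 and 2, 48.1 and 37.0 in KO 5 and 6, 15.4 and 27.5 in WT 3 and 4, and 54.2 and 47.8 in KO 7 and 8. The 2 WT libraries of experiment 2 were low, and the other 6 libraries shared a range from 37.0 to 54.2 CPM. The change in log2 was -0.14 ± 0.16 (SE) in experiment 1 and 1.25 ± 0.29 in experiment 2, where it was called higher. Without KO 7 it was 1.16 and without KO 8 it was 1.34, and neither passed the threshold. Per length, Rxra was the lowest of the 3 receptors in all 4 WT libraries (2.82 to 9.40 CPM per kb), and in KO 5 and 6, at 8.81 and 6.78 CPM per kb, it was above Nr1h3 (4.80 and 3.91). In KO 7 and 8, at 9.93 and 8.76 CPM per kb, it was below Nr1h3 (11.2 and 9.49).

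The transporters of cholesterol export come next. Abca1, at chr4:53030787-53159895 (minus strand), passes cholesterol and phospholipid to lipid-poor apolipoprotein A-I. It was 375 and 441 CPM in WT 1 and 2, 610 and 510 in KO 5 and 6, 482 and 440 in WT 3 and 4, and 445 and 417 in KO 7 and 8. Both KO libraries were above both WT libraries in experiment 1, and the genotypes overlapped in experiment 2. On the log2 scale the difference was 0.45 ± 0.11 (SE), called higher in experiment 1, and -0.10 ± 0.13 in experiment 2. Without WT 1 it was 0.34 in experiment 1 and did not pass. Thus in neither experiment was Abca1 called lower in KO, where Nr1h3 was.

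Abcg1, at chr17:31057675-31117988 (plus strand), moves cholesterol towards mature HDL. It stood at 306 and 336 CPM in WT 1 and 2, 478 and 501 in KO 5 and 6, 411 and 246 in WT 3 and 4, and 415 and 397 in KO 7 and 8. KO was above WT in experiment 1, and in experiment 2 the 2 WT libraries lay far apart with both KO libraries near the higher one. Its log2 fold change was 0.60 ± 0.07 (SE), called higher in experiment 1, and 0.31 ± 0.26 in experiment 2. In a fit over all 8 libraries with 4 groups, the change in experiment 1 was 0.61 and was not called. Per length, Abcg1 was above Abca1 in experiment 1, at 44.0 against 39.4 CPM per kb in the mean of WT and at 67.1 against 54.0 in KO. In experiment 2 the means of WT were close, at 45.0 against 44.5 CPM per kb, with the order turned in WT 4 (33.7 against 42.5), and those of KO were 55.7 against 41.6.

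The carriers of lipid in and around lipoproteins were Apoe and Pltp. Apoe, at chr7:19696109-19699188 (minus strand), encodes the apolipoprotein that macrophages secrete and that accepts exported cholesterol, here from a null allele. Its level was 8.35 and 6.30 CPM in WT 1 and 2, 22.7 and 16.6 in KO 5 and 6, 3.48 and 2.82 in WT 3 and 4, and 11.3 and 4.48 in KO 7 and 8. KO was above WT within each experiment, but KO 8 was below both WT libraries of experiment 1. In log2 terms KO differed from WT by 1.40 ± 0.20 (SE), called higher in experiment 1, and 1.33 ± 0.48 in experiment 2, not past the threshold with edgeR but called by DESeq2 and by the fit over all 8 libraries. In experiment 2 it was 0.51 without KO 7 and 1.85 without KO 8. Over both experiments it was 1.38 and called, though leaving out any of WT 1, WT 2, WT 3, WT 4, KO 5, KO 6 or KO 7 ended that call, with values between 1.08 and 1.46. It was the least abundant of the 10 genes in CPM in all 8 libraries but KO 5 and KO 6, where Nr1h3 was lower.

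Pltp, at chr2:164839518-164857711 (minus strand), encodes phospholipid transfer protein, which moves phospholipid between lipoprotein particles. It was 720 and 775 CPM in WT 1 and 2, 721 and 558 in KO 5 and 6, 301 and 231 in WT 3 and 4, and 909 and 750 in KO 7 and 8. The 2 WT libraries of experiment 2 were the lowest of all 8, and the genotypes overlapped in experiment 1. The change in log2 was -0.24 ± 0.13 (SE) in experiment 1 and 1.64 ± 0.20 in experiment 2, called higher. Without KO 8 it was 1.77 in experiment 2 and did not pass, and without KO 5 it was -0.43 in experiment 1 and was called lower. Per length it was the most abundant of the 10 genes in every library, between 90.0 and 355 CPM per kb. It shares up to 311 exon bases with Ctsa on the opposite strand, and whether reads were counted by strand is not stated in the sources used here. Ctsa, the lysosomal protective protein, had a median of 38081 counts and log2 fold changes of 0.06 and 0.04 in experiments 1 and 2, neither of which passed.

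Mylip, at chr13:45389742-45412022 (plus strand), encodes the ubiquitin ligase IDOL, which limits the uptake of lipoprotein cholesterol. It stood at 75.5 and 69.4 CPM in WT 1 and 2, 69.4 and 67.2 in KO 5 and 6, 49.8 and 38.5 in WT 3 and 4, and 105 and 92.3 in KO 7 and 8. In experiment 2 both KO libraries were above both WT libraries, and in experiment 1 WT 2 and KO 5 were equal to 3 digits. On the log2 scale the difference was -0.10 ± 0.06 (SE) in experiment 1 and 1.16 ± 0.16 in experiment 2, called higher. Without KO 7 it was 1.06 and without KO 8 it was 1.24, and neither passed.

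Lpcat3 acts on the fatty acids of the membrane, and Srebf1 on the genes of fatty acid synthesis. Lpcat3, at chr6:124663027-124704418 (plus strand), puts polyunsaturated fatty acids into phospholipids. Its level was 50.1 and 50.2 CPM in WT 1 and 2, 65.5 and 63.0 in KO 5 and 6, 68.8 and 45.5 in WT 3 and 4, and 56.0 and 59.7 in KO 7 and 8. KO was above WT in experiment 1, and in experiment 2 both KO libraries lay between the 2 WT libraries. Its log2 fold change was 0.35 ± 0.06 (SE), called higher in experiment 1, and 0.02 ± 0.21 in experiment 2, and in the fit over all 8 libraries the former was 0.36 and not called. Lpcat3 shares up to 334 exon bases with Emg1 on the opposite strand, and Emg1, which acts in ribosome assembly, fell in experiment 1 (-0.35, adjusted p = 0.00180 by edgeR).

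Srebf1, at chr11:60199089-60222581 (minus strand), encodes SREBP1, the regulator of fatty acid synthesis genes. It was 63.9 and 67.1 CPM in WT 1 and 2, 94.0 and 96.9 in KO 5 and 6, 90.3 and 68.8 in WT 3 and 4, and 94.5 and 75.0 in KO 7 and 8. Within experiment 1 the genotypes were apart, and in experiment 2 they overlapped. In log2 terms KO differed from WT by 0.53 ± 0.06 (SE), called higher in experiment 1, and 0.09 ± 0.19 in experiment 2. Its opposite-strand neighbour Rai1, which shares up to 109 exon bases, moved the same way in experiment 1 (0.34, adjusted p = 0.0467 by edgeR).

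**Figure D3:**
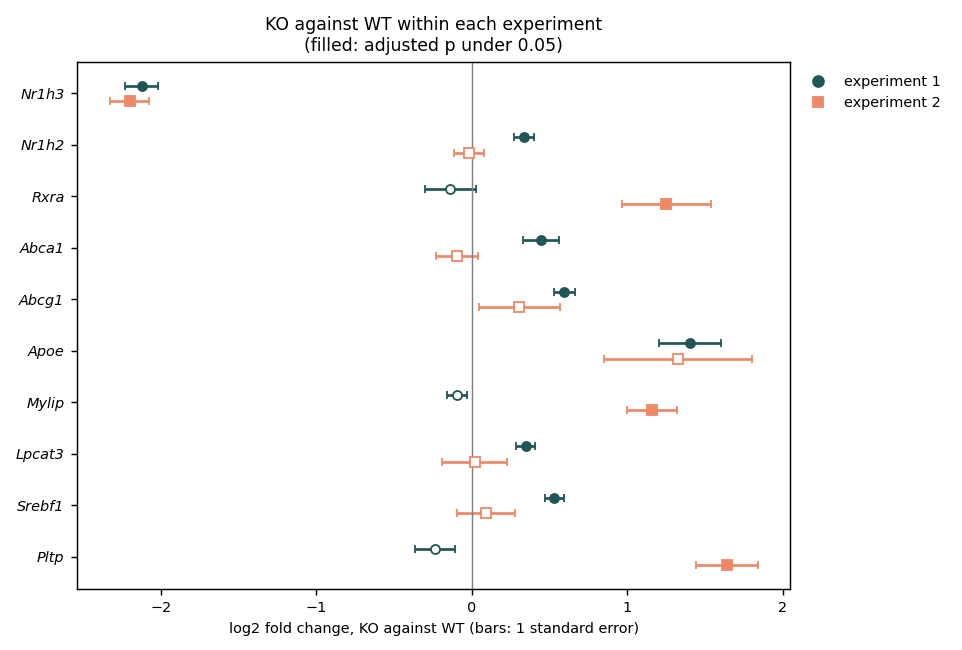
Log2 fold change of KO against WT for each of the 10 genes in experiment 1 (circles) and experiment 2 (squares), with bars of 1 standard error (2 libraries against 2) and filled symbols where the adjusted p from edgeR was under 0.05. Nr1h3 lies at -2.12 and -2.20, Rxra, Mylip and Pltp lie above 1 in experiment 2 alone, and Nr1h2, Abca1, Abcg1, Apoe, Lpcat3 and Srebf1 are filled in experiment 1 alone.

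The genotype difference itself differed between the experiments for some of the 10. The change in experiment 2 minus that in experiment 1 passed the threshold for 5 of the 10 genes, beside 41.6% of all genes tested. It was 1.87 ± 0.25 (SE) on the log2 scale for Pltp, 1.38 ± 0.37 for Rxra and 1.24 ± 0.18 for Mylip, and it was -0.55 ± 0.18 for Abca1 and -0.36 ± 0.10 for Nr1h2. Leaving out 1 library at a time gave between 2 and 8 such genes, and the calls of Pltp and Mylip were kept in every alternative. For Rxra, Mylip and Pltp the 2 WT libraries of experiment 2 were the lowest of the 8, whereas the KO means of the 2 experiments were closer (KO of experiment 2 over KO of experiment 1 was 1.20, 1.44 and 1.30 times). Their WT mean was 2.17, 1.64 and 2.81 times higher in experiment 1 than in experiment 2. Genotype cannot be told apart from what else differed between the WT and KO mice or cultures of an experiment.

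Levels of the 10 genes over the 8 libraries, each centred on its own mean log2 CPM, fell closest together for Nr1h2 and Abca1 (root mean square difference 0.13) and for Lpcat3 and Srebf1 (0.14). Mylip and Pltp differed by 0.31, Rxra and Pltp by 0.34, and Rxra and Mylip by 0.38. Nr1h3 was farthest from Apoe (2.19). Among genes outside the 10, the patterns most like that of Abca1 were those of Arpc1a, a subunit of an actin-nucleating complex (0.06), Ehmt2, a histone methyltransferase (0.07), and Nprl2, part of a complex that restrains mTOR signalling (0.08). The patterns most like that of Nr1h3 were those of Nfkbia, the inhibitor that holds NF-κB in the cytoplasm (0.22), Tnip3, a protein that binds the deubiquitinase TNFAIP3 (0.23), and Ehd1, an ATPase of endocytic recycling (0.25). Nfkbia stood at 254 and 218 CPM in WT 1 and 2, 64.9 and 61.7 in KO 5 and 6, 632 and 706 in WT 3 and 4, and 109 and 100.4 in KO 7 and 8. All of these are descriptions over the same 8 libraries, with no test.

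An LXR and its partner bind the hexamer AGGTCA in a direct repeat with a spacer of 4 bases. RefSeq gave 15 windows of 300 bases (250 before and 50 after a start) for 9 of the 10 genes. With at most 2 mismatches over both hexamers, on either strand, the repeat was in 0 of the 15 windows and in 3.02% of 32851 windows genome-wide. With at most 3 mismatches, a setting chosen after seeing the data, it was in 3 windows, those of Rxra, Abca1 and Srebf1, and in 21.9% of all windows. The CArG box to which serum response factor binds (CC, 6 bases of A or T, GG, either strand) was in 0 of the 15 windows and in 1.63% of all windows. The 3 matches are shown because they are the nearest to the LXR repeat in these windows. Each is written 5′ to 3′ on the gene's strand, with the matched repeat and its spacer in capitals. They lie at chr4:53159935-53159974 (Abca1, minus strand, 67 to 52 bases before the start), chr11:60210626-60210665 (Srebf1, minus strand, 182 to 167 bases before) and chr2:27709222-27709261 (Rxra, plus strand, 58 to 43 bases before), from RefSeq on GRCm38.p6.
Abca1: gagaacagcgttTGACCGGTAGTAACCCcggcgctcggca
Srebf1: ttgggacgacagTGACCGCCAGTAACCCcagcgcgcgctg
Rxra: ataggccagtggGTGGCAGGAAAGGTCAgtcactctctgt
In Abca1 and Srebf1 the match is on the strand opposite to the gene, and in Rxra it is on the gene's own strand. The share of windows with a match was not above that of all windows. A match is a likeness of letters, and whether LXR binds at these places was not tested. Windows without a match may still hold a site that differs more from the repeat.

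Other genes known as LXR targets, 20 in all, were not among the 10. Of these, 14 passed the filter, and Mlxipl, Abcg5, Abcg8, Apoc1, Apoc2 and Apoc4 did not, with at most 0.674 CPM in any library. In experiment 1, 9 rose and 2 fell in KO, beside 27.0% and 28.1% of all genes tested. In experiment 2, 4 rose, beside 7.53% of all genes tested, and the other 10 did not pass. DESeq2 called 5 there, and 3173 of all genes tested, where edgeR called 2280. Without KO 8, the count in experiment 2 was 0 with edgeR although 5 had an unadjusted p under 0.05, and the count over all genes tested went from 2280 to 232. The median change of the list, in log2, was 0.69 in experiment 1 and 0.26 in experiment 2, beside 0.01 and 0.01 over all genes tested. Arl4c, a small GTPase of the ARF family, was the target called higher in both experiments, by 0.68 ± 0.09 (adjusted p = 0.000765 by edgeR) and 1.61 ± 0.17 (adjusted p = 0.00955), the latter 1.70 and not called without KO 8. Smpdl3a, a secreted phosphodiesterase, changed in opposite directions, by -1.44 ± 0.07 (adjusted p = 2.68e-06 by edgeR) and 1.87 ± 0.18 (adjusted p = 0.00788, and 1.74 and not called without KO 8). Its level was 794 and 752 CPM in WT 1 and 2, 296 and 280 in KO 5 and 6, 181 and 223 in WT 3 and 4, and 673 and 806 in KO 7 and 8. The genotypes were thus apart in both experiments, with KO below WT in experiment 1 and above it in experiment 2.

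Lpl, the lipase that releases fatty acids from triglyceride-rich particles, fell in experiment 1 (-1.21 ± 0.09) and was -0.13 ± 0.25 in experiment 2. Cd5l, a protein secreted by tissue macrophages, was -0.13 ± 0.12 in experiment 1 (-0.30 and called without WT 1) and rose in experiment 2 (2.56 ± 0.25, and 2.49 and not called without KO 8), where WT 3 and WT 4 held 164 and 252 CPM and the other 6 libraries between 936 and 1288. The lysosomal cholesterol carriers went different ways, Npc2 rising in experiment 1 (0.69 ± 0.07) and Npc1 rising in experiment 2 (0.62 ± 0.14), a call that ended without any 1 of the 4 libraries, with values between 0.52 and 0.72. Fasn, the fatty acid synthase, rose in experiment 1 (0.79 ± 0.09), as did Scd2, a desaturase (1.44 ± 0.08, not called in the fit over all 8 libraries). Neither passed in experiment 2, where Fasn was -0.24 ± 0.27 and Scd2 was 1.01 ± 0.64, or 2.28 and called without WT 3. The change differed between the experiments for 10 of the 14, beside the 41.6% of all genes tested. Scd1 and Fads2, named after their values were seen, had the largest rises of the list in experiment 1, 4.56 and 2.96, where the fibroblast markers also rose. In experiment 2 they were -0.54 ± 0.99 and -1.06 ± 0.57, neither of which passed.

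**Figure D4:**
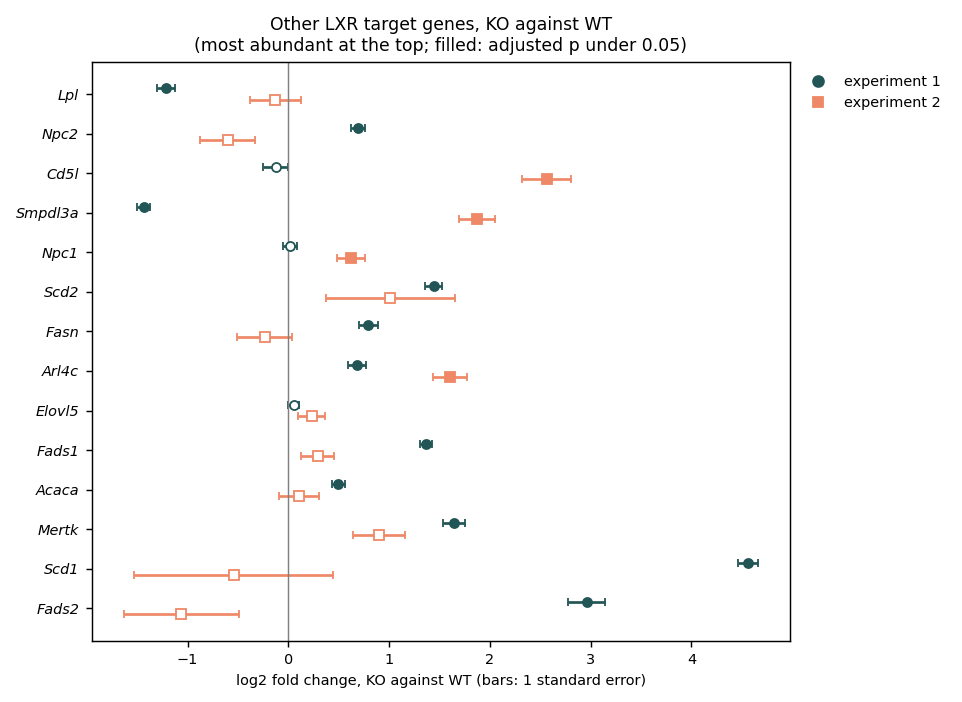
Log2 fold change of KO against WT for the 14 other LXR targets that were tested, in experiment 1 (circles) and experiment 2 (squares), with bars of 1 standard error (2 libraries against 2), filled where the adjusted p was under 0.05, and ordered by mean level. Of these, 9 rose and 2 fell in experiment 1 (27.0% and 28.1% of all genes tested) and 4 rose in experiment 2 (7.53%), with Arl4c filled on the higher side in both and Smpdl3a filled on opposite sides.

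A list of 13 genes held corepressors and coactivators of LXR and the further RXR genes Rxrb and Rxrg, and 12 were tested, all but Rxrg. In experiment 1, 3 rose and 2 fell, beside 27.0% and 28.1% of all genes tested, and in experiment 2, 2 rose, beside 7.53%. Rxrb, named because it is an RXR gene and not a coregulator, was among the 3 that rose in experiment 1 (0.52 ± 0.08). It was 0.41 ± 0.13 in experiment 2 and did not pass. Ncor1, the nuclear receptor corepressor, was 305 and 300.1 CPM in WT 1 and 2 and 268 and 253 in KO 5 and 6, a fall of small size (-0.23 ± 0.06, adjusted p = 0.0119 by edgeR) that was -0.21 without WT 1, -0.19 without KO 6 and -0.13 with upper-quartile scaling, none of which passed. It was 0.26 ± 0.13 in experiment 2. Tbl1xr1, a subunit of the NCoR complex, was 209 and 206 CPM in WT 1 and 2, 223 and 216 in KO 5 and 6, 88.9 and 84.1 in WT 3 and 4, and 239 and 251 in KO 7 and 8. Its rise in experiment 2 (1.50 ± 0.12, adjusted p = 0.00556 by edgeR) again came with WT libraries of experiment 2 that were below the other 6. Ncoa3, a steroid receptor coactivator, rose in experiment 1 (0.89 ± 0.07) and was 0.38 ± 0.16 in experiment 2.

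Of 6 enzymes that make or change oxysterols, 3 were tested. In experiment 1, 2 rose, beside 27.0% of all genes tested, and in experiment 2, 1 fell, beside 8.29%. Cyp27a1, a mitochondrial hydroxylase that makes a side-chain oxysterol, was 7.27 and 7.53 CPM in WT 1 and 2 and 41.0 and 34.5 in KO 5 and 6 (2.34 ± 0.11), and between 7.09 and 10.3 in the 4 libraries of experiment 2. Ch25h, the hydroxylase that macrophages induce in inflammation, turned between the experiments. Its level was 4.18 and 4.08 CPM in WT 1 and 2, 8.62 and 12.2 in KO 5 and 6, 51.4 and 24.7 in WT 3 and 4, and 2.80 and 1.32 in KO 7 and 8. It rose in experiment 1 (1.33 ± 0.19, adjusted p = 0.000647 by edgeR) and fell in experiment 2 (-4.21 ± 0.54, adjusted p = 0.0163, or -3.76 and not called without KO 8), and the difference of the changes was -5.54 (adjusted p = 0.000764).

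Uptake, storage and synthesis of cholesterol were read from 2 further lists. Of 12 genes of cholesterol handling, all tested, 4 rose and 1 fell in experiment 1, beside 27.0% and 28.1% of all genes tested, and 3 rose and 1 fell in experiment 2, beside 7.53% and 8.29%. Soat1, which esterifies cholesterol for storage, was -0.13 ± 0.06 in experiment 1 and rose in experiment 2 (0.96 ± 0.15, adjusted p = 0.0199 by edgeR), a call that ended without WT 3 (0.88), KO 7 (1.05) or KO 8 (0.87). Lipa, the lysosomal acid lipase, and Osbpl8, a carrier between membranes, passed in neither experiment at the settings of the report. With upper-quartile scaling Lipa was 0.27 in experiment 1 and was called. Of 17 genes of the SREBP2 programme of sterol synthesis and uptake, 16 were tested. In experiment 1, 14 rose, beside 27.0% of all genes tested. In experiment 2 none of the 16 passed with edgeR at the settings of the report, although 3 had an unadjusted p under 0.05. Over all genes tested, 7.53% were called higher and 8.29% lower there. Of this list, DESeq2 called 2 (3173 of all genes tested), edgeR with no filter 2 (3099 of 25466 genes), and 1 fit over all 8 libraries 3 (4899 of all genes tested). The median change of the 16, in log2, was 1.06 in experiment 1 and -0.50 in experiment 2. Hmgcs1, an early enzyme of sterol synthesis, stood at 92.8 and 88.2 CPM in WT 1 and 2, 210 and 217 in KO 5 and 6, 253 and 156 in WT 3 and 4, and 151 and 111 in KO 7 and 8. Both KO libraries were above both WT libraries in experiment 1 and below both in experiment 2. It rose in experiment 1 (1.23 ± 0.06) and was -0.64 ± 0.28 in experiment 2. The change differed between the experiments for 13 of the 16, beside 41.6% of all genes tested. Fibroblast markers were high in the same KO libraries in which this programme was high relative to WT, at 178 and 234 CPM summed. In WT 3, where Hmgcs1 was highest, they summed to 9.72 CPM. The part of fibroblasts in this programme was not tested.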

How the data were processed

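RNA-seq was made from BMDMs in 4 WT and 4 KO libraries, 2 of each genotype in each of 2 experiments, with a stranded mRNA kit. The authors deposited raw counts per gene for each experiment, and a second table of normalized counts (a signal), which equal the counts divided by a factor of 0.891 to 1.09 for each library, set within the experiment. The submitters' processing notes name STAR 2.7.0f, Subread 1.6.4, featureCounts, DESeq2 1.22.1 and GRCm38, without roles. The annotation version and the strand setting are not given in the sources used here. Only counts entered the tests, because the factors of the normalized counts were set in each experiment separately.

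Samples were grouped by their labels. The 10 genes, the lists and the tests were chosen with earlier results of these data known. Genes passing filterByExpr by genotype over all 8 libraries (14418 of 53735) were fitted with edgeR 4.0.16 in R 4.3.3 (TMM, robust quasi-likelihood F test, Benjamini-Hochberg over all genes tested, threshold 0.05), within each experiment, over both with the experiment as a term, and as a difference between the experiments in a fit of 4 groups. A gene is said to be called, to rise or to fall where its adjusted p was under 0.05. Standard errors were derived from each gene's F statistic (absolute log2 change over its root). CPM were TMM-scaled over all 8 libraries, and likeness of pattern used log2 CPM with a prior count of 2. Errors rest on 2 libraries a group. Exon lengths, coordinates and overlaps came from GENCODE M21, and upstream sequences from RefSeq on GRCm38.p6, matched by symbol. The fits were tested on simulated counts with known changes.

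Named were all 10 genes, the 8 most abundant other LXR targets, those reported here of the 3 most abundant of each further list, the 3 genes most like Abca1 and Nr1h3, Mkl1, and 4 cell markers. A total of 4 genes of the lists are not reported here and are left out of their counts. Lists of neutrophil, dendritic cell, adipocyte, B cell, fibroblast, endothelial and macrophage markers were summed. Alternatives were RLE and upper-quartile scaling, DESeq2 1.42.0, limma-voom (limma 3.58.1), no filter, at least 10 counts in every library, a threshold of 0.01, 1 fit over all 8 libraries, no experiment term, and leaving out each library. Where an arm had 1 library left, it was assumed to vary like the others.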

Additional observations from a re-analysis of the deposited data

Results flagged for a closer look

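The change of KO against WT in experiment 2 minus that in experiment 1 passed the test of that difference (edgeR, adjusted p under 0.05) for 23 of the 32 named genes, beside 41.6% of all genes tested. The 10 genes, Mkl1, Col1a2, Adgre1, Cd68 and Csf1r were named directly, and the others by their level within a list. As earlier results of these data were known, the count is a description and no excess is read from it. Among the 10 genes, this difference of log2 fold changes was 1.87 for Pltp, 1.38 for Rxra, 1.24 for Mylip, -0.55 for Abca1 and -0.36 for Nr1h2. Among other LXR targets it was 3.30 for Smpdl3a, 2.68 for Cd5l, 1.07 for Lpl, 0.91 for Arl4c, 0.59 for Npc1, -1.04 for Fasn and -1.31 for Npc2. It was 1.42 for Tbl1xr1 and 0.48 for Ncor1 among coregulators, and -2.53 for Cyp27a1 and -5.54 for Ch25h among the oxysterol enzymes. For cholesterol storage and synthesis it was 1.08 for Soat1 and -1.88 for Hmgcs1. Of the targeted gene and cell markers it was 3.01 for Adgre1, -0.79 for Mkl1, -1.25 for Cd68, -2.11 for Csf1r and -4.96 for Col1a2. Of these 23 calls, 13 were kept in all 15 alternatives. The call was lost in 8 alternatives for Fasn (among them limma-voom, and -0.60 without WT 3) and for Nr1h2, in 7 for Abca1, in 6 for Mkl1, in 5 for Lpl, in 4 for Ncor1 and in 3 each for Rxra, Npc1, Npc2 and Arl4c, most of them with 1 library left out. The part of cell composition and of the experiment in these differences was not tested.

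In 2 of 64 sets of 4 libraries of a genotype, 1 library stood far from the others by Dixon's criterion, which flags about 1 in 20 such sets when nothing is unusual. These were KO 8 for Srebf1, lowest at 75.0 CPM, and WT 3 for Fasn, highest at 198 CPM. Both experiments are joined in these sets.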

How the results depend on the processing

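The change of Nr1h3 within each experiment and over both kept its direction in every alternative, and its call in all but the fit over both experiments without an experiment term. No paired analysis was possible because WT and KO libraries share no numbers. Experiment 1 rested on 2 libraries against 2, as did experiment 2.

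Of the 7949 genes called in experiment 1 49.0% were higher in KO, and with upper-quartile scaling, which moved the median change of all genes from 0.01 to 0.11, 59.8% were. Over both experiments the shares were 52.2% and 67.3%. In experiment 2 the 2280 called genes became 234 at a threshold of 0.01 and 4899 in 1 fit over all 8 libraries, and 1 of the 10 genes passed at 0.01. Leaving out single libraries gave 232 to 1388 of all genes, 1 to 4 of the 10 and 0 to 4 of the other LXR targets, lowest without KO 8. For the difference between the experiments, 3247 genes, 2 of the 10 and 4 of the other targets passed at 0.01, and leaving out single libraries gave 3935 to 6509 genes, 2 to 8 of the 10 and 5 to 12 targets. Over both experiments (1027 genes), DESeq2 called 2492 genes and 4 targets, and at 0.01 there were 208 genes, 1 of the 10 and 0 targets (5 with an unadjusted p under 0.05). Without the experiment term there were 4 genes, 0 of the 10 and 0 targets (2983, 3 and 6 with an unadjusted p under 0.05). Leaving out single libraries gave 243 to 1099 genes, 1 to 3 of the 10 and 0 to 5 targets. The cause of these moves was not tested.

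None of the log2 fold changes that turned in sign was called with all libraries and the settings of the report. Outside the 10 genes, these in experiment 1 were Osbpl8 (0.053 with upper-quartile scaling, -0.11 to 0.025 leaving out libraries), Npc1 (-0.023 with no filter, -0.048 to 0.085) and Cd5l (-0.30 to 0.072). In experiment 2, leaving out libraries, these were Col1a2 (-1.97 to 0.48), Cyp27a1 (-0.42 to 0.025), Fasn (-0.56 to 0.17), Lipa (-0.34 to 0.22) and Lpl (-0.39 to 0.19). For the difference between the experiments these were Lipa (-0.48 to 0.038) and Scd2 (-1.11 to 0.86). Of the 10 genes, over all alternatives, the changes that took both signs were those of Rxra (-0.34 to 0.038) and Mylip (-0.16 to 0.0023) in experiment 1, and of Nr1h2 (-0.030 to 0.033), Abcg1 (-0.017 to 0.72), Lpcat3 (-0.25 to 0.34) and Srebf1 (-0.092 to 0.30) in experiment 2. For the difference between the experiments they were those of Nr1h3 (-0.23 to 0.094), Abcg1 (-0.62 to 0.15), Apoe (-0.87 to 0.43) and Lpcat3 (-0.61 to 0.019). The direct repeat in promoter windows went from 0 to 3 of the genes when 3 mismatches were allowed, a setting added after seeing the data.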
